A study of Mus with 8 samples.

Results

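Genes that drive and police mitosis were followed in B16F10 cells, a mouse melanoma line, exposed to Butyroside D. They comprise cyclins, mitotic kinases, spindle checkpoint and kinetochore components, anaphase regulators and cytokinesis factors, with kinesin, Cep and Cenp genes left out. The members were taken by symbol, and 38 of the 40 listed genes had a transcript cluster (the probe set that stands for a gene on this array) with that symbol alone, out of 22206 transcript clusters in all. Ccnf, which encodes cyclin F, and Foxm1, a transcription factor of the late cell cycle, share their transcript cluster with a second symbol and have no value here. Of the 2 groups of 4 Mouse Clariom S arrays, one was labelled as cells given 2 µM Butyroside D for 48 h and the other as cells kept 48 h in medium alone. All came from the same line, with no other agent or allele named, and had been seeded in 6-well plates 24 h before the medium was changed. The treatment note of the control samples also mentions 0.2 µM, whereas medium is all that their titles and sources name. No label tells separate cultures from repeat measurements of one, so each p-value reflects the spread among the arrays, and that spread may be technical.

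Entry into mitosis depends on the kinase CDK1, which is active only when bound to a cyclin of the A or B type. Aurora and Polo kinases then build the spindle, while the spindle checkpoint holds back the ubiquitin ligase APC/C until every kinetochore is attached. Once it is released, APC/C with CDC20 destroys cyclin B and securin, sister chromatids part and the cell divides. Transcripts of most of these genes climb in G2 and mitosis and are low in resting cells, so in a proliferating tumour line such as B16F10 their bulk level follows both the share of cells in those phases and the RNA per cell, which cannot be told apart here.

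Signals of the arrays are given on the log2 scale. All 38 members averaged above 5.17, the highest antigenomic background median of any array. The cells carried the melanocyte program: all 7 melanocyte markers (Tyr, Tyrp1, Dct, Pmel, Mlana, Mitf and Sox10) were above that background, against 1 of 17 markers of fibroblasts, leukocytes, endothelium and keratinocytes, the exception being Col1a1. Within each group, arrays 1 and 2 formed a close pair and so did arrays 3 and 4. The correlation over transcript clusters was 0.997 to 0.998 within a pair. Between arrays of different pairs, taken over both groups together, it was 0.986 to 0.993. Each value with n = 4 therefore rests on 2 close pairs, and for the members the median difference within a pair was 0.07, with 0.26 as the widest.

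No mitotic gene differed between all treated and all control arrays beyond the spread of the arrays. In limma's moderated test with Benjamini-Hochberg adjustment over all transcript clusters, 0 of 38 members were called at an adjusted p under 0.05, where 0.117% of all transcript clusters were called, and the smallest adjusted p among members was 0.221, for Spc25. At an unadjusted p under 0.05 there were 3 members, Spc25, Sgol1 and Mki67, or 7.89%, a smaller share than the 17.9% of all transcript clusters. With the close pair as a random block, 0 members reached an unadjusted p under 0.05, where 4.01% of all transcript clusters did. The members' median log2 change was -0.02, beside 0.01 over all transcript clusters, with 17 above and 21 below 0. Tpx2 was the 1 member whose 4 treated arrays did not overlap the 4 controls, a state found in 12.9% of all transcript clusters.

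The 95% interval of the change lay within 2-fold either way for 32 of 38 members, or 84.2%, a share near the 88.8% of all transcript clusters. With the close pair as a random block it did so for 30 of 38, or 78.9%, beside 69.3% of all. That fit takes 1 correlation within pairs, 0.81, for all transcript clusters and still counts 6 residual degrees of freedom. Its intervals may thus be too narrow for groups of close pairs, and these counts do not exclude changes over 2-fold. Ccnb1 was counted as within 2-fold, although its treated pairs averaged 11.65 and 13.14. Standard errors ran from 0.12 to 0.35 without the block and from 0.22 to 0.38 with it.

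**Figure D1:**
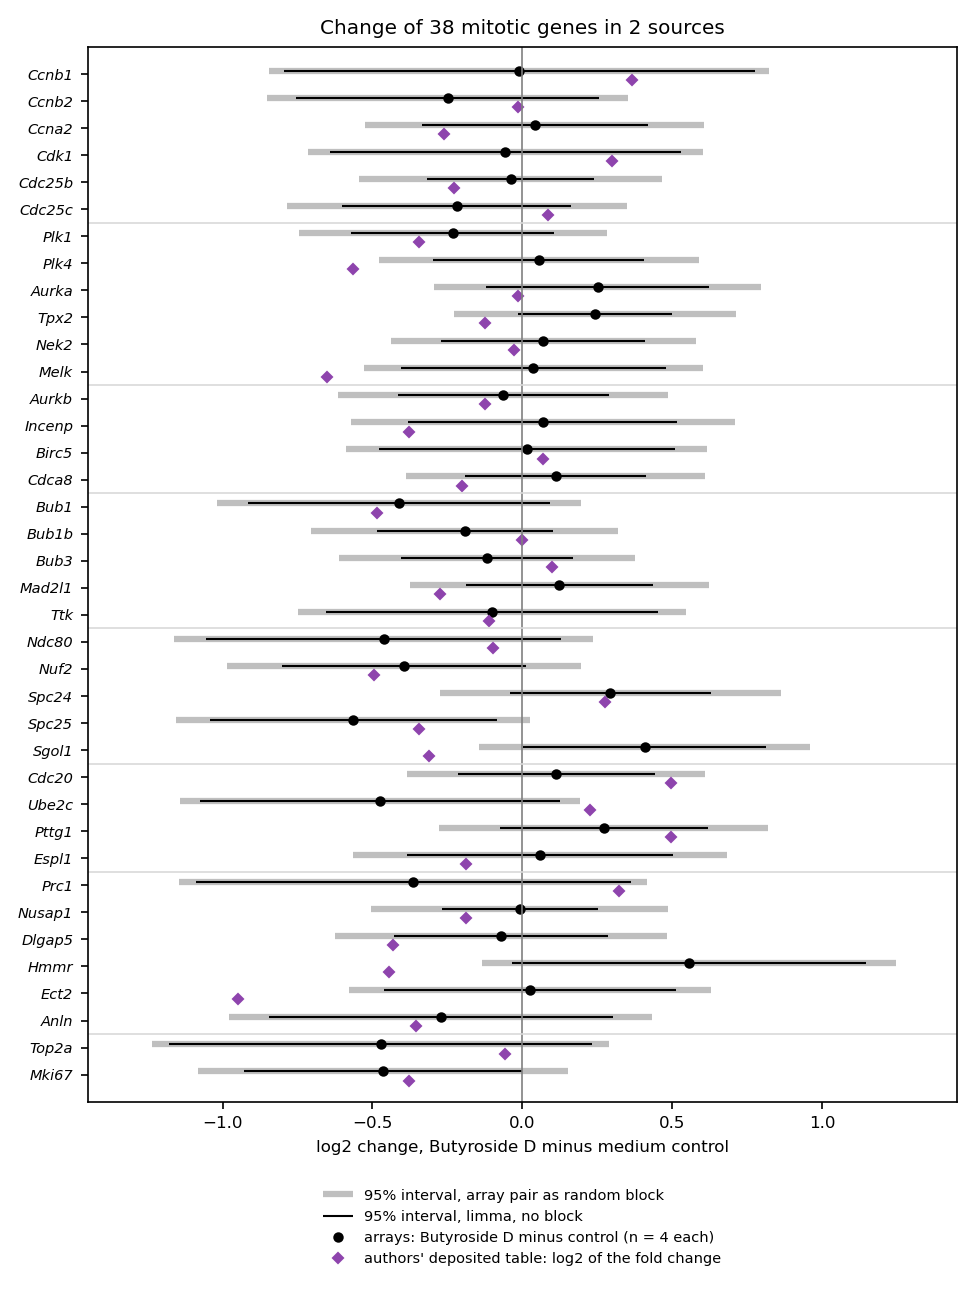
Log2 change of each of the 38 mitotic genes, Butyroside D minus medium control (n = 4 arrays each), with the 95% interval from limma without a block (black) and with the array pair as a random block (grey); diamonds give the log2 of the fold change in the authors' deposited table. Array changes lie between -0.56 and 0.56, and the lowest diamond, for Ect2, lies at -0.95, outside both of its gene's intervals.

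The treated arrays were split between their close pairs. In treated arrays 1 and 2, 22 of the 38 members, or 57.9%, lay below all 4 controls, where 23.0% of all transcript clusters did, and 30.4% of those above background. A further 6 members, or 15.8%, lay above all controls in these arrays, beside 27.4% of all. In treated arrays 3 and 4 the counts turned round, with 12 members, or 31.6%, above all controls, beside 18.9% of all and 25.9% of those above background. Members below all controls in arrays 3 and 4 numbered 3, or 7.89%, beside 19.3% of all. The median shift of the members from the control mean was -0.21 for the first treated pair (arrays 1 and 2) and 0.09 for the second (arrays 3 and 4), while all transcript clusters were at 0.04 and -0.01.

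Both treated arrays 1 and 2 lay below both treated arrays 3 and 4 for 27 members, or 71.1%, a relation shown by 33.4% of all transcript clusters. The opposite order held for 8 members, Plk1, Plk4, Aurka, Tpx2, Melk, Incenp, Hmmr and Ect2, or 21.1%, beside 41.3% of all. At least 2-fold apart were Ccnb1, Ube2c, Prc1 and Top2a, 10.5% of the members beside 8.33% of all, and each was lower in arrays 1 and 2. The median size of the gap between pairs was 0.46 for the members in the treated group and 0.34 in the control group, beside 0.35 and 0.26 for all transcript clusters. The control arrays leaned the same way in their median. The median signed gap, arrays 1 and 2 minus arrays 3 and 4, was -0.39 for the members in the treated group and -0.22 in the control group. For all transcript clusters it was 0.06 and -0.01. Gene by gene, the treated and control gaps did not go together, with a Pearson correlation of 0.01 across the members. Both gaps had the same sign for 24 of 38 members, or 63.2%, beside 52.8% of all. All 38 members were above background, as were 52.1% of all transcript clusters. Shares of order and gap among the transcript clusters above background were not computed. No test was made of this split, since a pair of near-identical arrays gives no error of its own.

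Members below all controls in arrays 1 and 2 numbered 22 with each array centred on its median, 20 with centring on transcript clusters above background and 21 with quantile normalization, where 25.4%, 21.8% and 25.5% of all transcript clusters lay there. Members above all controls in arrays 3 and 4 numbered 17, 7 and 10 under the same scalings, or 44.7%, 18.4% and 26.3%, and the share of all transcript clusters moved with them, to 27%, 11.4% and 18.2%. Treated pairs lay on opposite sides of all controls for 10 members, or 26.3%, beside 9.39% of all transcript clusters and 13.1% of those above background. Under the 3 other scalings that count was 12, 6 and 7, or 31.6%, 15.8% and 18.4% of the members, beside 9.89%, 10.4% and 8.57% of all transcript clusters. The share with centring on transcript clusters above background was thus nearer to that of all transcript clusters. For the 3 other scalings, shares among the transcript clusters above background were not computed. Ccnb1, Ttk, Espl1 and Prc1 were the 4 members on opposite sides under all of these scalings.

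**Figure D2:**
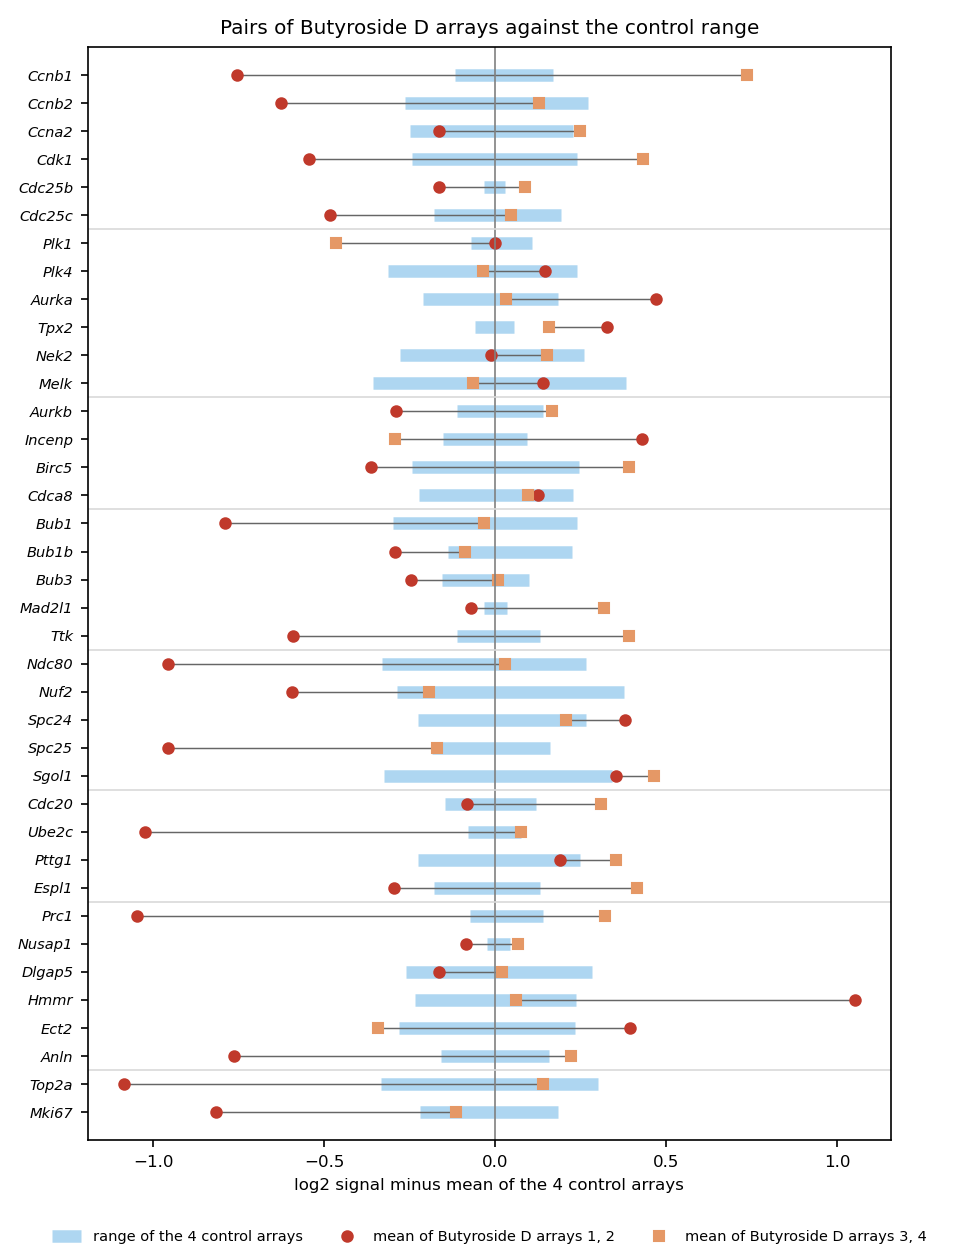
Shift of each mitotic gene from the control mean in log2 units, as the mean of treated arrays 1 and 2 (circles) and of treated arrays 3 and 4 (squares), with the range of the 4 controls as a pale bar. Most circles lie left of the control range, with Hmmr, Aurka, Incenp and Ect2 among those to its right, and Ccnb1 has the widest separation between circle and square.

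Some other measures of the arrays moved with the same split. Cdkn1a, which encodes the CDK inhibitor p21, had signals of 13.31, 13.40, 10.77 and 10.81 in the treated arrays, against 10.13, 10.18, 10.01 and 9.94 in the controls. The bacterial transcript dap is added to the RNA in Affymetrix protocols as a labelling control. Its signal, taken as a mean over matching probe sets, stood at 6.54, 6.51, 7.95 and 7.93 in the treated arrays. In the controls it was between 8.09 and 8.56. Treated arrays 1 and 2 were thus the highest for Cdkn1a and the lowest for this control. Their negative control probe sets also had the lowest medians, 6.06 and 6.02, against 6.55 and 6.52 in treated arrays 3 and 4 and 6.24 to 6.65 in the controls. Positive control probe sets had medians of 10.07 and 10.06 in treated arrays 1 and 2 and 10.43 and 10.41 in treated arrays 3 and 4. In the controls they were at 10.06 to 10.29. The antigenomic background median ran the other way, at 5.17, 5.07, 4.70 and 4.69 in the treated arrays and 4.83 to 4.95 in the controls. The labelling controls thr, phe and lys were also lower in treated arrays 1 and 2 than in arrays 3 and 4, but lys ranged only from 3.05 to 3.38. Hybridization controls differed less than dap among the treated arrays. They ran from 7.91 to 8.13 for bioB, 9.72 to 9.78 for bioC, 10.92 to 11.07 for bioD and 12.40 to 12.61 for cre. Melanocyte markers, which are not mitotic genes, were also lower in treated arrays 1 and 2 than in arrays 3 and 4 for 6 of 7. That order of the pair means held for 9950 of 22206 transcript clusters. Median shifts of the markers from the control mean were -0.05 and 0.31, beside 0.04 and -0.01 over all transcript clusters. In arrays 3 and 4, 6 of 7 markers, or 85.7%, lay above all controls, beside 18.9% of all and 25.9% of those above background. The part of these differences in the members' split was not tested.

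**Figure D3:**
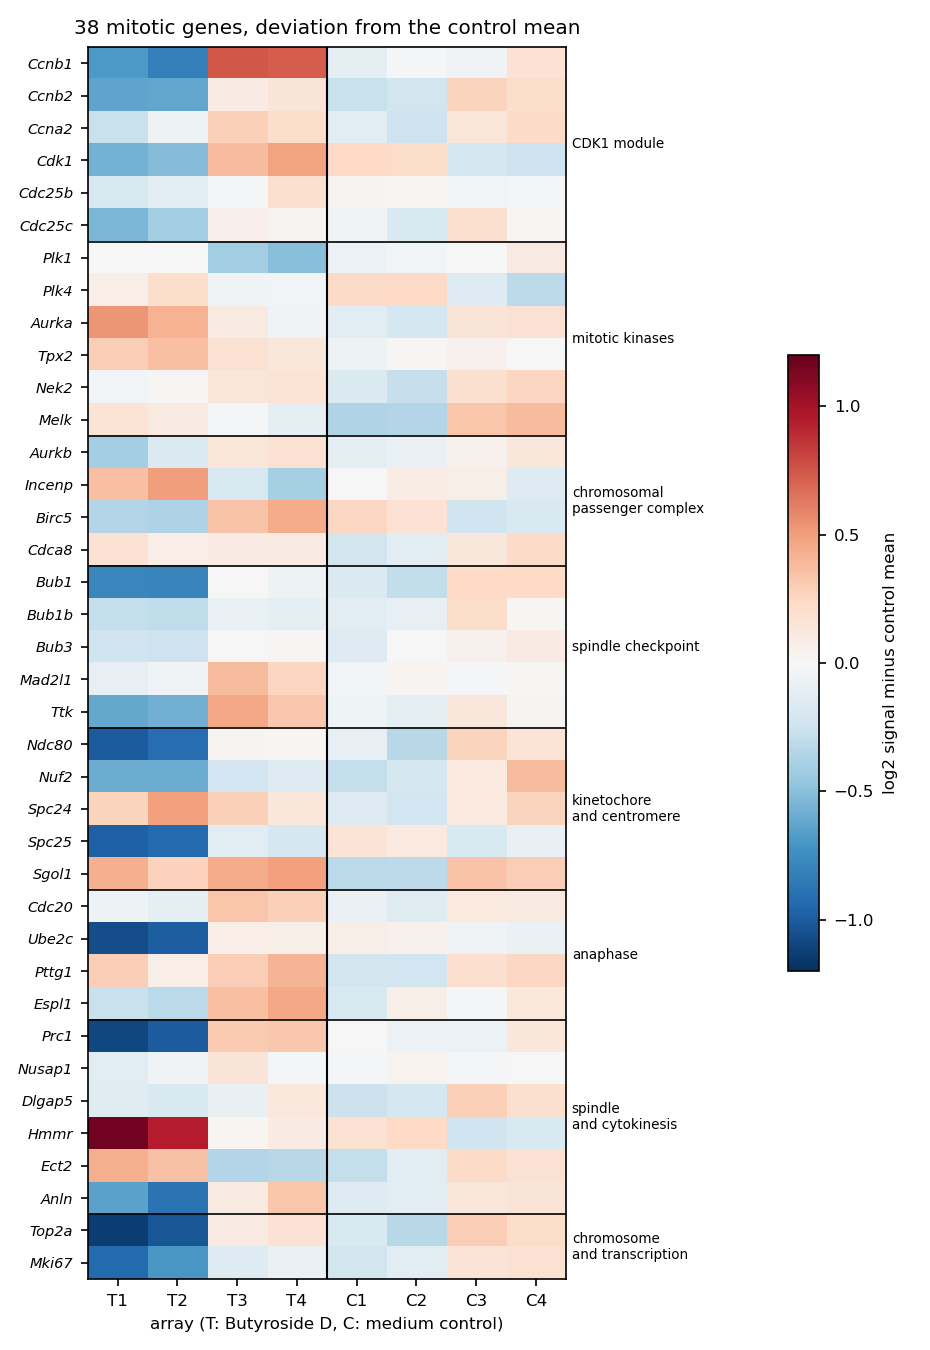
Deviation of each mitotic gene from its control mean (log2, colour scale) on treated arrays T1 to T4 and control arrays C1 to C4, with genes grouped by role. Columns T1 and T2 are blue for most rows and red for Hmmr, Aurka, Incenp and Ect2, and columns T3 and T4 differ from them in most rows.

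The CDK1 module showed the split most plainly in its B-type cyclins and the kinase. Ccnb1, which encodes cyclin B1, had signals of 11.71, 11.58, 13.15 and 13.13 in the treated arrays, against 12.29, 12.39, 12.36 and 12.57 in the controls. Treated arrays 1 and 2 were below every control and treated arrays 3 and 4 above every control, so that the first pair averaged 0.355 of the level of the second. The group means nearly coincided, 12.39 ± 0.86 in treated and 12.40 ± 0.12 in control arrays (SD, n = 4 each), and the change was -0.01 ± 0.35 (SE) with a 95% interval of -0.80 to 0.78.

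Cdk1, the kinase itself, was at 9.86, 9.90, 10.80 and 10.91 in the treated arrays, against 10.67, 10.64, 10.21 and 10.18 in the controls. The treated pairs again fell on either side of all controls, although arrays 3 and 4 overlapped the controls when arrays were centred on transcript clusters above background. The control pairs of Cdk1 were themselves apart, by 0.46, and the overall change was -0.06 ± 0.26 (SE).

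For Ccnb2, which encodes cyclin B2, signals were 11.84, 11.85, 12.57 and 12.63 in the treated arrays and 12.20, 12.25, 12.74 and 12.68 in the controls. Treated arrays 1 and 2 were below all controls and arrays 3 and 4 among them, with a change of -0.25 ± 0.23 (SE). Cdc25c, a phosphatase that switches CDK1 on, followed the same order, at 8.35, 8.48, 8.96 and 8.93 against 8.86, 8.72, 9.09 and 8.93 in the controls. Cdc25b, a second CDK-activating phosphatase, was below all controls in treated arrays 1 and 2, with a mean shift of -0.16 from the control mean. Ccna2, which encodes cyclin A2 and acts from S phase on, overlapped the controls in both pairs, with a change of 0.04 ± 0.17 (SE).

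**Figure D4:**
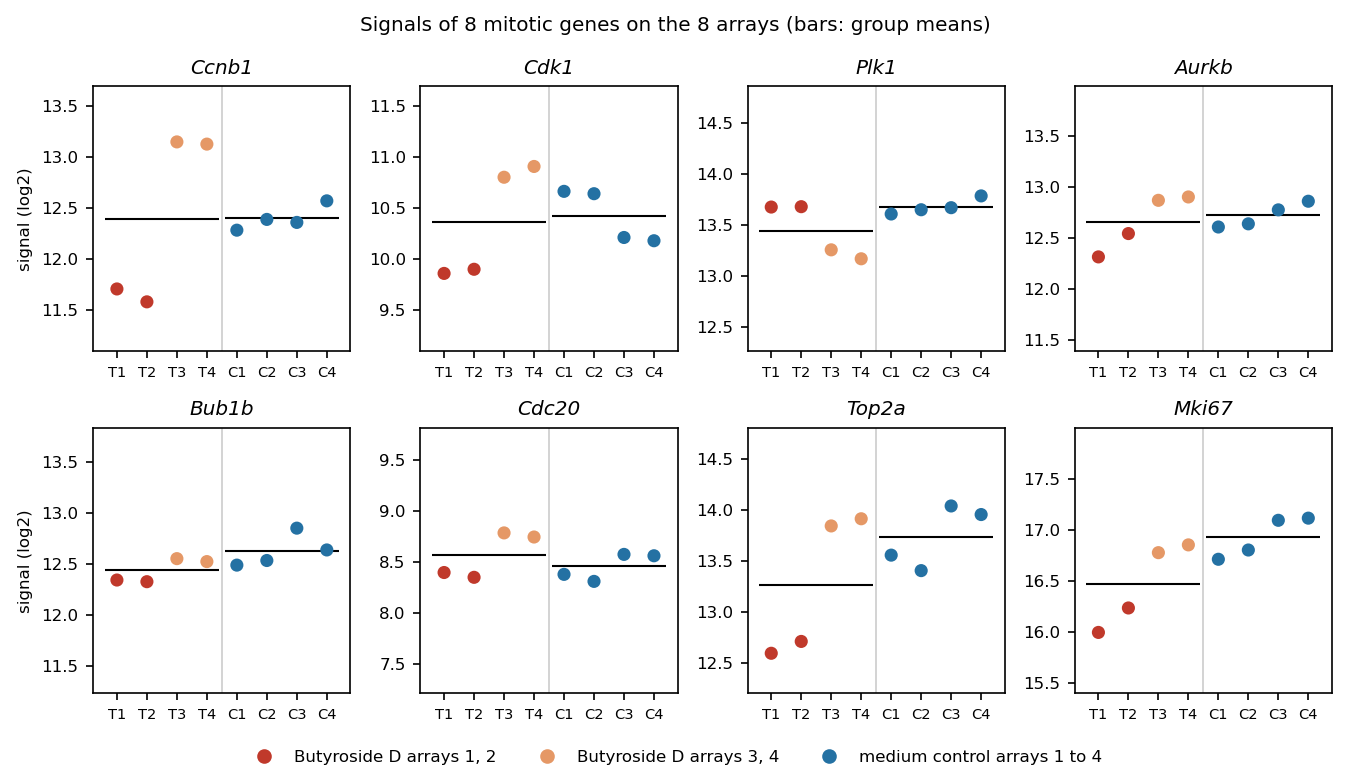
Log2 signals of 8 mitotic genes on each array, with Butyroside D arrays T1 to T4 on the left, medium control arrays C1 to C4 on the right, and horizontal bars for the group means. Ccnb1 lies near 11.6 on T1 and T2 and near 13.1 on T3 and T4, with all controls between, whereas Plk1 is lowest on T3 and T4; every panel spans the same number of log2 units.

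Plk1, Plk4, Aurka, Tpx2 and Melk had treated arrays 1 and 2 above arrays 3 and 4, the reverse of the B-type cyclins. Nek2 followed the cyclins' order. The median size of the gap between pairs in this role was 0.19 in the treated group and 0.40 in the control group. For Plk4, Nek2 and Melk the control pairs were further apart than the treated pairs, and for Plk1, Aurka and Tpx2 the treated pairs were. Plk1, the Polo kinase that drives centrosome maturation and mitotic entry, had 13.68, 13.68, 13.26 and 13.17 in the treated arrays, against 13.61, 13.65, 13.67 and 13.78 in the controls. Here treated arrays 3 and 4 were the low ones, below all controls under all 4 scalings, while arrays 1 and 2 lay among the controls. The change was -0.23 ± 0.15 (SE, adjusted p = 0.446, limma).

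Tpx2, the spindle factor that activates Aurora A, was at 13.67, 13.74, 13.56 and 13.51 in the treated arrays, against 13.31, 13.39, 13.43 and 13.37 in the controls. Every treated array was above every control, except that arrays 3 and 4 overlapped the controls when centred on transcript clusters above background. The change of 0.24 ± 0.12 (SE) did not pass the test, with an adjusted p of 0.304 (limma). Its partner Aurka, which encodes Aurora A, was above all controls in treated arrays 1 and 2 and within them in arrays 3 and 4. The mean shifts of Aurka from the control mean were 0.47 and 0.03.

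Plk4, the kinase that starts centriole duplication, Nek2, which loosens the link between centrosomes, and Melk, a kinase of proliferating cells, overlapped the controls in both treated pairs. Their changes were 0.05, 0.07 and 0.04 on the log2 scale.

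The chromosomal passenger complex, which corrects faulty attachments and prepares cytokinesis, was split among its own subunits. Its kinase subunit Aurkb (Aurora B) had 12.32, 12.54, 12.87 and 12.90 in the treated arrays, against 12.61, 12.64, 12.78 and 12.86 in the controls. The first treated pair was below all controls and the second above them. Birc5, which encodes survivin, had the same order with a mean shift of -0.36 in the first pair and 0.39 in the second. For both genes the second pair overlapped the controls with centring on transcript clusters above background or with quantile normalization. Incenp, the scaffold of the complex, had the reverse order, with shifts of 0.43 and -0.29, although with median centring its second pair overlapped the controls. Cdca8, which encodes borealin, was at 10.63, 10.53, 10.55 and 10.55 in the treated arrays, against 10.23, 10.32, 10.59 and 10.68 in the controls, and overlapped them throughout. The changes of these 4 subunits over all arrays lay between -0.06 and 0.11.

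Genes of the spindle checkpoint were all below the controls in treated arrays 1 and 2, 5 of 5 members, beside 23.0% of all transcript clusters and 30.4% of those above background. Bub1, the kinase that recruits checkpoint proteins to the kinetochore, had signals of 12.68, 12.67, 13.45 and 13.40 in the treated arrays, against 13.28, 13.16, 13.70 and 13.70 in the controls. The second treated pair lay within the controls, and the change was -0.41 ± 0.23 (SE, adjusted p = 0.366, limma). For Bub1b, which encodes the APC/C inhibitor BUBR1, the values were 12.34, 12.33, 12.55 and 12.52 against 12.49, 12.53, 12.85 and 12.64 in the controls, a smaller difference of the same order.

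Ttk, the MPS1 kinase at the head of the checkpoint, had a level in treated arrays 1 and 2 that averaged 0.506 of that in arrays 3 and 4, and the pairs lay on either side of all controls. Mad2l1, which encodes the MAD2 protein that binds CDC20, was below all controls in arrays 1 and 2 and above them in arrays 3 and 4. Its mean shifts from the control mean were only -0.07 and 0.32. Arrays 1 and 2 overlapped the controls with quantile normalization or centring on transcript clusters above background. Bub3, a partner of BUB1 and BUBR1, shifted by -0.25 and 0.01.

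At the kinetochore, members of the Ndc80 complex, the main microtubule coupler, were not uniform. Spc25 had 10.64, 10.68, 11.48 and 11.41 in the treated arrays, against 11.78, 11.73, 11.43 and 11.53 in the controls. Treated arrays 1 and 2 were well below all controls and arrays 3 and 4 at their lower edge. Its change of -0.56 ± 0.22 (SE), with a 95% interval of -1.04 to -0.08, was the lowest of the 38 members and had the smallest adjusted p, 0.221 (limma).

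Ndc80 and Nuf2, which form the outer arm of the complex, were also below all controls in treated arrays 1 and 2. Their mean shifts from the control mean were -0.96 and -0.60. Spc24, the partner of Spc25 in the inner arm, was in contrast above all controls in treated arrays 1 and 2 as deposited. Its mean shift from the control mean was 0.38. Sgol1 (Sgo1 in RefSeq), which encodes shugoshin, the protector of centromeric cohesion, had 12.44, 12.29, 12.45 and 12.50 in the treated arrays, against 11.69, 11.70, 12.35 and 12.31 in the controls. Its treated arrays were tightly grouped and its control pairs were 0.64 apart, so that control arrays 3 and 4 overlapped the treated ones. The change was 0.41 ± 0.18 (SE, adjusted p = 0.276, limma).

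Among anaphase regulators, Ube2c, the ubiquitin-conjugating enzyme that works with APC/C, had 11.52, 11.60, 12.67 and 12.66 in the treated arrays, against 12.66, 12.64, 12.55 and 12.51 in the controls. Arrays 1 and 2 were below every other array, and averaged 0.466 of the level in arrays 3 and 4. The group change was -0.47 ± 0.27 (SE, adjusted p = 0.380, limma).

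Cdc20, the activator of APC/C in mitosis, was at 8.39, 8.35, 8.78 and 8.74 in the treated arrays, against 8.38, 8.31, 8.57 and 8.56 in the controls. Treated arrays 3 and 4 were above all controls, with a mean shift of 0.31 from the control mean, and arrays 1 and 2 were among them. Pttg1, which encodes securin, the inhibitor of separase, had 7.54, 7.33, 7.54 and 7.66 in the treated arrays and 7.02, 7.02, 7.45 and 7.49 in the controls, with overlap through treated array 2. Espl1, which encodes separase, lay on opposite sides of the controls in the treated pairs, with shifts of -0.30 and 0.41.

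Spindle and cytokinesis factors held wide shifts in both directions. Prc1, which bundles microtubules at the spindle midzone, had 10.80, 10.90, 12.21 and 12.22 in the treated arrays, against 11.90, 11.82, 11.83 and 12.04 in the controls. The first pair averaged 0.388 of the second, and all controls lay between them. Its change was -0.36 ± 0.33 (SE, adjusted p = 0.583, limma).

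Hmmr, a hyaluronan receptor that also binds the spindle, went the other way, with 12.84, 12.62, 11.70 and 11.78 in the treated arrays, against 11.86, 11.92, 11.45 and 11.50 in the controls. Arrays 1 and 2 were above every other array, 1.98 times the level of arrays 3 and 4, which lay among the controls. The change of 0.56 ± 0.26 (SE) was the highest of the 38 members, with an adjusted p of 0.305 (limma).

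Ect2, the exchange factor that activates RhoA for the cleavage furrow, also ran against the majority, with shifts of 0.39 for the first pair and -0.34 for the second. Anln, which encodes anillin, the scaffold of the contractile ring, followed the cyclins, at -0.77 and 0.22. Nusap1 and Dlgap5, both spindle microtubule proteins, shifted by -0.09 and 0.07, and by -0.16 and 0.02.

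The remaining members were general markers of dividing cells, and both were lowest in treated arrays 1 and 2. Top2a, the topoisomerase that untangles sister chromatids, had 12.59, 12.71, 13.84 and 13.91 in the treated arrays, against 13.55, 13.40, 14.04 and 13.95 in the controls. Treated arrays 1 and 2 were below all controls and averaged 0.428 of arrays 3 and 4, which lay among them. Mki67, which encodes the Ki-67 antigen, was at 16.00, 16.24, 16.78 and 16.85 in the treated arrays and at 16.71, 16.80, 17.09 and 17.12 in the controls. Its change was -0.47 ± 0.21 (SE), and its adjusted p was 0.278 (limma). For both genes the control arrays 3 and 4 were also higher than control arrays 1 and 2.

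A further 6 lists of mitotic genes held 104 measured genes of 105, and 0 of them were called by limma, with 16, or 15.4%, at an unadjusted p under 0.05, 8 in each direction, beside 17.9% of all transcript clusters. Below all controls in treated arrays 1 and 2 were 42 of them, or 40.4%, beside 23.0% of all and 30.4% of those above background. Above all controls there were 17, or 16.3%, beside 27.4% of all. In treated arrays 3 and 4, 12 lay below all controls, or 11.5%, beside 19.3% of all. Another 30 lay above them, or 28.8%, beside 18.9% of all and 25.9% of those above background. Condensin and cohesin, the rings that compact and hold chromosomes, had a median shift of -0.44 for the first treated pair and 0.10 for the second, and the list of other kinetochore and checkpoint genes had -0.38 and 0.08. Subunits and cofactors of APC/C were at 0.01 and 0.16, and other mitotic entry and exit regulators at -0.25 and 0.23. Other spindle and cytokinesis genes were at 0.02 and -0.00, and DREAM, RB and E2F regulators, the transcriptional control of the cell cycle, at 0.14 and 0.08.

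The genes with the smallest p in each list gave changes that stayed short of the threshold. Among APC/C genes these were Cdc23 at 0.62 ± 0.13 (SE), with an adjusted p of 0.0778, and Anapc7 at 0.62 ± 0.14, with 0.0807 (limma), both subunits of its tetratricopeptide repeat arm. The condensin subunits Ncapd3 and Ncapg2 were at -0.46 and -0.82, Mastl, the kinase that restrains the phosphatase PP2A in mitosis, at -0.44, and its substrate Ensa at 0.76. Of the other lists, the kinetochore genes Zwilch and Ska3 were at 0.44 and -0.76, the spindle-associated genes Ckap2 and Gtse1 at -0.47 and 0.36, and the transcription factors E2f4 and E2f6 at 0.41 and -0.37.

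**Figure D5:**
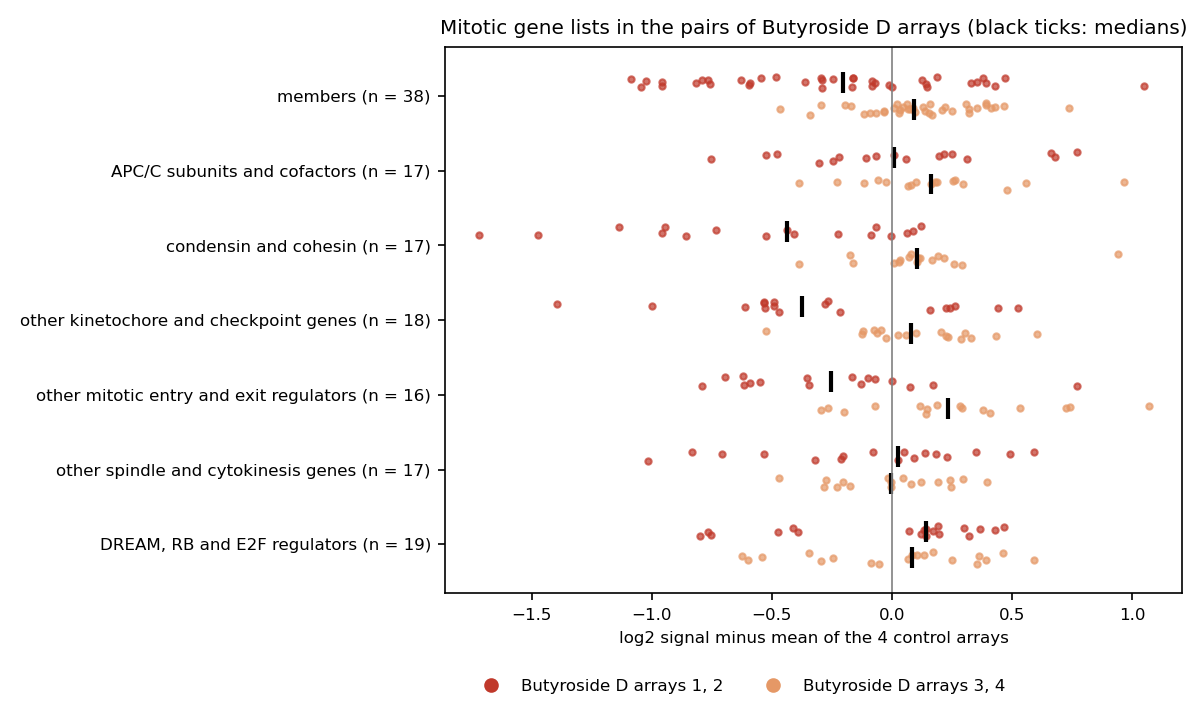
Shift from the control mean (log2) of every gene in the 38 mitotic members and in 6 other mitotic lists, for treated arrays 1 and 2 (upper row of each list) and treated arrays 3 and 4 (lower row), with medians as black ticks. The members have medians of -0.21 and 0.09, and condensin and cohesin of -0.44 and 0.10.

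The authors' deposited table gives its own averages and test for the same contrast. It had 1 of 38 members at an FDR under 0.05, or 2.63%, beside 1.56% of all transcript clusters. That member was Ect2, with a treated average of 12.71 against a control average of 13.66 in the authors' deposited table, a signed fold change of -1.93 and an FDR of 0.0271. The value of Ect2 in each of the 4 treated arrays was higher than that average, from 13.30 to 14.09. For 17 members, or 44.7%, the treated average in the authors' deposited table lay outside the range of the 4 treated arrays, as it did for 42.0% of all transcript clusters.

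A log2 fold change below 0 in the authors' deposited table was found for 27 of 38 members, or 71.1%, beside 52.8% of all transcript clusters. The median was -0.16, beside -0.03 over all transcript clusters. The treated average in the authors' deposited table lay below all 4 treated arrays for 11 members, or 28.9%, beside 23.8% of all. Melk was at -0.65 and Plk4 at -0.57, while Cdc20 and Pttg1 were each at 0.50, none with an FDR under 0.05 in the authors' deposited table. Ccnb1 was at 0.37, Cdk1 at 0.30 and Mki67 at -0.38 in the authors' deposited table. Hmmr, with a change of 0.56 in the arrays, was at -0.44 in the authors' deposited table, where its treated average of 11.24 lay below all 4 treated arrays. Control averages in the authors' deposited table can differ from the control array means, as for Bub1b (12.58 against 12.63). The control arrays may still be common to the deposited table and the array fit, so the values are given side by side with no test between them.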

How the data were processed

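The study measured total RNA on 8 Mouse Clariom S arrays. RMA, Affymetrix Expression Console and Transcriptome Analysis Console are named, without versions or order, in the submitters' processing notes. The deposited array values are log2 signals, and the genome build is not given in the sources used here. The authors' deposited comparison table gives log2 group averages, a signed fold change (a score, with values under 1 as negative inverses), a p-value and an FDR-adjusted p-value, from a test its headers do not name.

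Of 28846 features, 6640 control probe sets were set aside. The 22206 transcript clusters were fitted in R 4.3.3 by limma 3.58.1, using lmFit and eBayes (6 residual degrees of freedom, two-sided), with Benjamini-Hochberg adjustment over all of them and a threshold of 0.05. The fit was tested on simulated data. Arrays were independent there, so that test cannot show how the fit behaves with close pairs. The 8 arrays limit the precision. Signals in all arrays are printed for 8 members fixed by name (Foxm1, the ninth, has no value) and for the 2 members with the smallest p in each of 8 roles, and the 2 genes with the smallest p are named from each other list. Members, lists and this rule were chosen with earlier results of these data known. The other scalings were chosen after seeing the data, as were fits without a treated pair. RefSeq's gene table (GRCm38.p6) holds 39 member symbols, and Sgol1 as a synonym.

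Equal array numbers were not taken to pair treated with control arrays, since no label says so and their deviations from the group means correlated at 0.07 to 0.08.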

Additional observations from a re-analysis of the deposited data

Results flagged for a closer look

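Dixon's test set no array of any member apart. In 76 groups (38 members in treated and in control arrays), the lone gap at either end never passed its critical share of the range, and 0 were set apart. Chance sets apart about 5% of groups when the 4 arrays are independent, which arrays in close pairs are not. Each array has a near-copy beside it, which keeps the lone gap small. The count of 0 therefore cannot show that no array stood out.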

How the results depend on the processing

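Limma called no member under any alternative except those without a treated pair, and the members' median log2 change lay between -0.21 and 0.09 in all alternatives. Over all transcript clusters, 26 calls became 0 with the replicate number as a block and 0 with the array pair as a random block, 48 with median centring, 55 without dim transcript clusters, 14 with centring on those above background, and 0 to 5 when 1 array was left out, the 5 without treated array 4. The replicate block left 0 members called and a smallest adjusted p of 0.159 (limma). With it 7 of 38 members had an unadjusted p under 0.05. The share of all transcript clusters at that level was not taken for this block, so the 7 cannot be set against it. Each treated array's deviations correlated best with the control array of its own number, a hint from the data and not from the design. Centring above background gave 7 members above all controls in treated arrays 3 and 4 and 6 on opposite sides. The authors' deposited table called 1 member.

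Without treated arrays 1 and 2, limma called 881 of 22206 transcript clusters, 1 of 38 members (Ccnb1) and 2 of 104 genes of the other lists. In that fit 10 members were below 0. Without treated arrays 3 and 4 limma called 5502 of 22206 transcript clusters, 14 of 38 members and 35 of 104 genes of the other lists. Those fits take 2 near-identical arrays as independent. Without treated arrays 1 and 2 the changes of Ccnb1 (0.74), Cdk1 (0.43), Prc1 (0.32), Aurkb (0.16), Top2a (0.14), Ccnb2 (0.13), Ube2c (0.076) and Cdc25c (0.047) turned positive, and without arrays 3 and 4 that of Cdc20 was -0.083. Ccnb1 was at 0.017 with median centring. With 1 array left out, Ccnb1 ranged from -0.26 to 0.26, Cdk1 from -0.24 to 0.11 and Aurkb from -0.14 to 0.051. The cause was not tested. All members averaged above background, and the number of arrays limits the precision.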
